A study of Mus musculus with 2 samples.

Results

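The genes examined here encode the core of the inflammasome and the machinery of pyroptosis, the lytic death of inflammatory cells. They were chosen by name for their function and not by any measured value. They were Nlrp3, Aim2, Naip2 and Naip5 (sensors), Nek7 (a kinase that binds NLRP3), Pycard (the adaptor ASC), Casp1 and Casp4 (caspases) and Gsdmd (the pore former gasdermin D), 9 of the 20330 genes of the deposited table. All 9 were found in the table, and all 9 were above 1 FPKM (fragment counts scaled to transcript length and sequencing depth) in both libraries.

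Adipose tissue macrophages (ATM) were taken from the visceral fat of C57BL/6 mice and sorted by flow cytometry for the macrophage surface proteins that Adgre1 and Itgam (CD11b) encode. The mice had eaten an atherogenic high-fat diet for 12 weeks, started at 4 weeks of age. Mice of both groups lacked ApoE and carried floxed Hif-1α alleles. WT mice were hMRP8cre-;Hif-1αfl/fl;ApoE-/-, and KO mice were hMRP8cre+;Hif-1αfl/fl;ApoE-/-. The human MRP8 (S100A8) promoter drives Cre in cells of the myeloid lineage, so the deletion in KO mice was not limited to ATM. There was 1 library per genotype, and whether it came from a single mouse or a pool is not given in the sources used here. No difference below has a replicate check, no test was possible and no p-value is given, so that neither a difference nor an order of levels could be set against a spread between samples.

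In an inflammasome, a cytosolic sensor recruits ASC, and ASC recruits and activates caspase-1. Caspase-1 matures interleukin-1β and interleukin-18 and cuts gasdermin D, whose N-terminal part forms pores in the plasma membrane. In the non-canonical pathway caspase-11, the product of mouse Casp4, binds bacterial lipopolysaccharide directly and also cuts gasdermin D. In macrophages, expression of Nlrp3 and of pro-interleukin-1β is typically induced first by a priming signal acting through NF-κB, and assembly follows a further signal such as potassium efflux. NLRP3 in macrophages of obese fat is known for its link to insulin resistance.

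Of the 9 genes, 6 were at higher and 3 at lower values in the KO library, and the adaptor differed most. Pycard was at 19.5 FPKM in WT compared with 1.75 in KO, an 11.2-fold lower FPKM. Nek7, Aim2 and Gsdmd were 2.38-fold, 2.42-fold and 2.19-fold higher in KO, Casp4 and Nlrp3 were 1.55-fold and 1.40-fold higher, and Naip2, Casp1 and Naip5 were at 1.06, 0.915 and 0.638 times their WT FPKM. Differences are given from here on as log2(FPKM + 1), KO minus WT, a scale that compresses differences between low values. At a 3-fold difference on this scale, 1 of the 9 members (Pycard) was lower in KO and 0 were higher, while 27.3% of the 10297 genes compared passed 3-fold, 13.6% higher and 13.7% lower. At a 2-fold difference, 3 members were higher and 1 was lower, against 23.1% of all genes higher and 22.5% lower, or 45.6% in either direction. The median difference of the members was 0.49, beside 0.03 for all genes compared. The share of members past either threshold was thus near or under that of all genes compared. That set includes genes below 1 FPKM in 1 library, whereas all 9 members reached 1 FPKM in both. Of the 7586 genes that reached 1 FPKM in both, 429 were higher and 447 were lower at 3-fold, a smaller share.

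**Figure D1:**
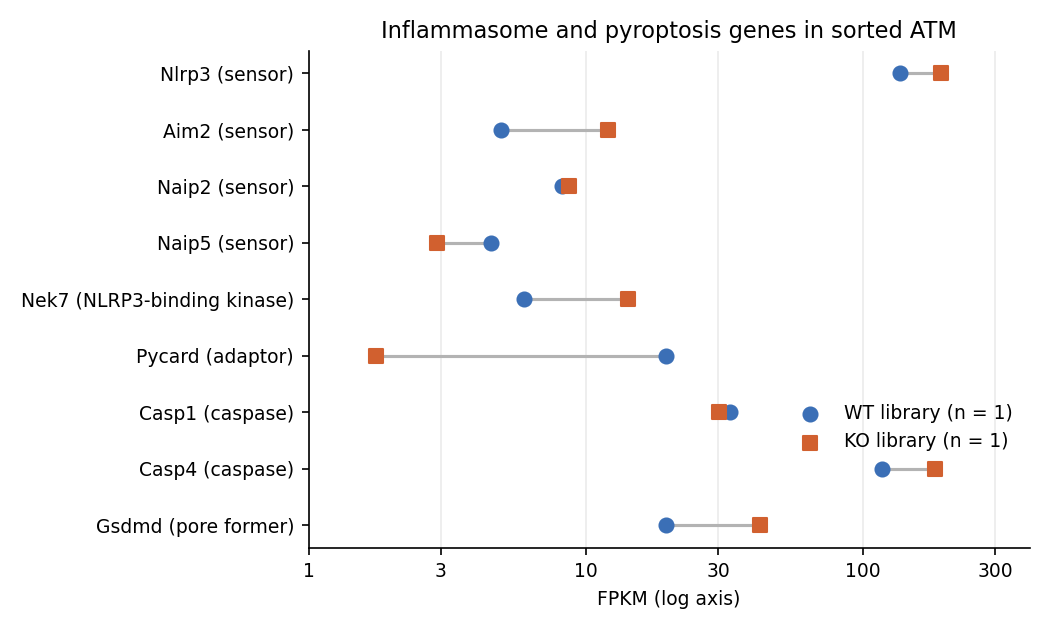
FPKM of the 9 genes (log axis) in the WT library (circles) and the KO library (squares), 1 library each, with no error bars because there are no replicates. Pycard is the only gene whose symbols lie more than 3-fold apart, 19.5 against 1.75 FPKM.

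The depth behind these values was estimated from genes that have 1 annotated transcript. Their FPKM times length in kilobases had a smallest recurring step of 0.168 in WT (15 genes) and 0.134 in KO (20 genes), which was read as 1 fragment although 2 genes lay below it in WT and 0 in KO. This put the libraries at about 5950000 and 7470000 fragments. Fragment numbers given below use the longest coding transcript of a gene and cover counting error only. The targeted gene, Hif1a, was at 30.4 FPKM in WT compared with 20.97 in KO, a difference of -0.52. The table holds 1 value for the whole gene, so the floxed exon was not checked. Apoe was at 94.3 FPKM in WT compared with 117 in KO, although both genotypes are labelled ApoE-/-. A whole-gene value does not show whether the disrupted part is transcribed, and the label was not checked further. Adgre1 was at 299 and 239 FPKM and Itgam at 128 and 128 FPKM. The spread between the libraries depended on level: 2-fold was passed in either direction by 63.3% of all genes averaging 2 to 5 FPKM, 49.6% at 5 to 10, 38.9% at 10 to 20, 26.8% at 20 to 50 and 7.81% at 100 to 1000 FPKM.

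**Figure D2:**
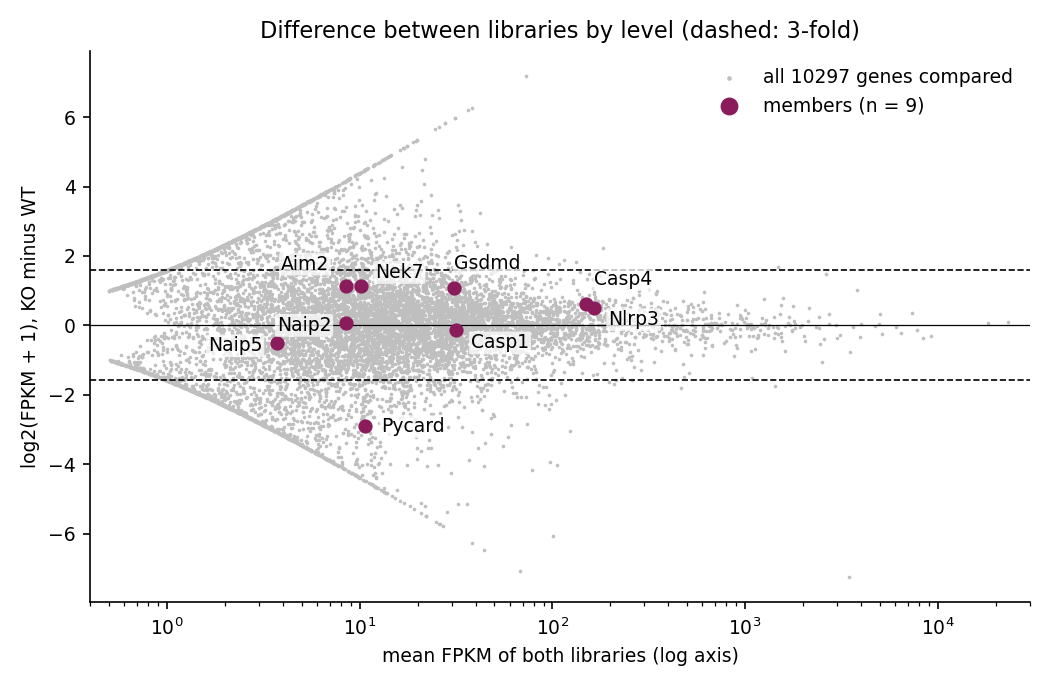
Difference between the libraries, log2(FPKM + 1), KO minus WT, against the mean FPKM (log axis) for the 10297 genes compared (grey) and the 9 members (dark points, labelled). Dashed lines mark 3-fold, and Pycard at -2.90 is the only member outside them. The curved edges are genes listed at 0 in a library.

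Promoter sequences are shown for the adaptor, for the most abundant sensor and for both caspases, because Hif-1α is a transcription factor and Nlrp3 and Casp4 are primed genes. RefSeq windows (GRCm38.p6) from 250 bases before to 50 bases after the start were found for 8 of the 9 genes, in 10 windows, and not for Gsdmd. They were searched on both strands for the hypoxia response core, ACGTG or GCGTG, and for the NF-κB consensus. Capitals mark matches to either motif.
Nlrp3 promoter, chr11:59541319-59541618 (plus strand): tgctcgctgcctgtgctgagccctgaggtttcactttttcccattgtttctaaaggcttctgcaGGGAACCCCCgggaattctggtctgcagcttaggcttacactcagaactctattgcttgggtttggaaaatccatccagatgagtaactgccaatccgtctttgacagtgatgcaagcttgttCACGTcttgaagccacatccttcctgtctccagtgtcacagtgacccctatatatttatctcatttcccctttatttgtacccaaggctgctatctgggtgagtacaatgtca
Pycard promoter, chr7:127993818-127994117 (minus strand): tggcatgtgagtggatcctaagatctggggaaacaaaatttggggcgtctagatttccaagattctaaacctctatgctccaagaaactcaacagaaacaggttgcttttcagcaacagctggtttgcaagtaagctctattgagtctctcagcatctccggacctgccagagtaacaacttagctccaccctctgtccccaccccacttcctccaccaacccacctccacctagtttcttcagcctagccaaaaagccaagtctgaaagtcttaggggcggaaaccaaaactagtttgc
Casp1 promoter, chr9:5298267-5298566 (plus strand): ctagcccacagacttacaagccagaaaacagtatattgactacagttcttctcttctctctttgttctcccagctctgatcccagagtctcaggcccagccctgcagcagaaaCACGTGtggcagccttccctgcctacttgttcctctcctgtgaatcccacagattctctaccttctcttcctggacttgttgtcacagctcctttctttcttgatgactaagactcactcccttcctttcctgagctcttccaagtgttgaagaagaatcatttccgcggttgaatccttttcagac
Casp4 promoter, chr9:5308599-5308898 (plus strand): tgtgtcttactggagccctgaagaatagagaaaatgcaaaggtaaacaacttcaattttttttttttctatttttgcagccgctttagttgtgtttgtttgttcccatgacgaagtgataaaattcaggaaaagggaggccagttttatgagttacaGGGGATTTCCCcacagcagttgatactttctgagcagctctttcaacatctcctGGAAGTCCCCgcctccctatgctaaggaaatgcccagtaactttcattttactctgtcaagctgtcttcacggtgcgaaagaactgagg
The hypoxia response core was present in 3 of the 10 windows, those of Casp1, Nek7 and 1 of the Nlrp3 starts, against 43.8% of all 32851 windows of this length. In Casp1 it lay 137 to 132 bases before the start, as part of CACGTG, which reads the same on both strands and is also an E-box. E-boxes of this form occur in 7.15% of all windows. The Pycard window held neither motif. The NF-κB consensus was present in 4 windows from 3 genes, Casp4, Naip5 and Nlrp3, against 8.46% of all windows. Casp4 has a pair of starts 11 bases apart, whose windows hold the same 3 matches. These are matches of letters and do not show binding.

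Nlrp3, the sensor of potassium efflux and membrane damage, was the most abundant member in both libraries. It was at 136 FPKM in WT compared with 191 in KO, on an estimated 3252 and 5730 fragments. The difference was 0.49, and Nlrp3 lies at a level where 7.81% of all genes passed 2-fold. Its expression exceeded that of 94.1% of the genes listed above 0 in WT and 95.8% in KO.

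Nek7, the kinase that bridges NLRP3 molecules when the inflammasome assembles, was far lower than Nlrp3 and moved in the same direction. It was at 5.97 FPKM in WT compared with 14.2 in KO, on an estimated 187 and 558 fragments, a difference of 1.13. At this level 19.7% of all genes were at least 2-fold higher in KO. An antisense transcript, Gm28501, overlaps 118 exon bases of Nek7, and without strand information reads from the overlap cannot be assigned to either gene.

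Aim2, which binds double-stranded DNA in the cytosol, was at 4.95 FPKM in WT compared with 11.99 in KO, on an estimated 83.6 and 254 fragments. With its shortest coding transcript of 326 nt in place of the longest of 2839 nt, these would be 9.60 and 29.2 fragments. Its difference of 1.13 was close to that of Nek7. Of all genes averaging 5 to 10 FPKM, 24.8% were at least 2-fold higher in KO, so a difference of this size was common at this level. Aim2 was the eighth of the 9 members by FPKM in WT and the sixth in KO.

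Naip2 and Naip5 recognise bacterial proteins delivered into the cytosol, Naip2 the type III secretion rod protein and Naip5 flagellin, and signal through NLRC4. Naip2 was at 8.20 FPKM in WT compared with 8.73 in KO, a difference of 0.08. Naip5 was at 4.54 FPKM in WT compared with 2.90 in KO, a difference of -0.51. These are neighbouring copies on chromosome 13, and their values are uncertain because reads can fit several copies. Of all 50-base stretches in the annotated coding transcripts, 36.9% of those of Naip5 and 19.1% of those of Naip2 also occur in another gene. Naip6 holds 22.3% of the Naip5 stretches, and Naip1 holds 12.3% of the Naip2 stretches. Naip6 itself was at 9.63 and 10.1 FPKM, and Naip1 was listed at 0 in both libraries.

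Pycard encodes ASC, which joins pyrin-domain sensors to caspase-1 and polymerises into the speck. Its FPKM of 19.5 made it the fourth of the 9 members in WT, and its FPKM of 1.75 made it the lowest in KO. The difference was -2.90. Between mean levels of 10 and 20 FPKM, 20.6% of all genes passed 3-fold and 10.4% were lower in KO by at least that much. Its FPKM exceeded that of 67.3% of the genes listed above 0 in WT and of 16.5% in KO.

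The Pycard value also depends on which transcript the fragments were assigned to. GENCODE M21 lists 2 coding transcripts, of 493 and 3800 nt, a 7.71-fold difference in length. The WT value corresponds to an estimated 57.1 fragments if all were assigned to the shorter transcript and to 440 if all were assigned to the longer. The KO value corresponds to 6.42 and 49.5 fragments. The WT library was the shallower, so these numbers are not comparable between libraries without scaling to depth. The part of transcript assignment in this difference was not tested. In the same range of mean FPKM, 819 genes have coding transcripts that differ at least 3-fold in length, and 14.0% of them passed 3-fold. Of the other 1042, which also hold genes with a single coding transcript, 25.8% did. The groups were not matched for transcript length or fragment number, so these shares do not bear on Pycard. A gene on the opposite strand, Gm45205, shares 485 exon bases with Pycard and cannot be told apart from it there without strand information.

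Both caspases stayed within 2-fold of their WT level, and Casp4 was the more abundant in both libraries. Casp1, the protease that ASC activates, was at 33.1 FPKM in WT compared with 30.3 in KO, on an estimated 295 and 339 fragments, a difference of -0.12. Casp4, which lies beside Casp1 on chromosome 9, was at 117 FPKM in WT compared with 182 in KO, on an estimated 1000.1 and 1945 fragments, a difference of 0.63. Casp4 was thus at 3.54 times the FPKM of Casp1 in WT and at 5.99 times in KO. Neither gene shares a 50-base stretch with any other annotated gene.

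Gsdmd, the pore former that both caspases cut, was at 19.5 FPKM in WT compared with 42.6 in KO, on an estimated 207 and 569 fragments. The difference was 1.09, at a level where 13.4% of all genes were at least 2-fold higher in KO. In WT its FPKM equalled that of Pycard to 3 digits, and in KO it lay above Casp1. Gsdmd was at 0.587 times the FPKM of Casp1 in WT and at 1.40 times in KO.

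In GRCm38 coordinates from GENCODE M21, all given for protein-coding genes, Nlrp3 (ENSMUSG00000032691) lies on chromosome 11 from 59541568 to 59566956 and Aim2 (ENSMUSG00000037860) on chromosome 1 from 173350879 to 173466040. Nek7 (ENSMUSG00000026393) lies on chromosome 1 from 138482875 to 138620141. Naip2 (ENSMUSG00000078945) spans 100144063 to 100202092 and Naip5 (ENSMUSG00000071203) spans 100211739 to 100246323 on chromosome 13. Pycard (ENSMUSG00000030793) lies on chromosome 7 from 127989708 to 127993867. Casp1 (ENSMUSG00000025888) spans 5298517 to 5307265 and Casp4 (ENSMUSG00000033538) spans 5308828 to 5336783 on chromosome 9. Gsdmd (ENSMUSG00000022575) lies on chromosome 15 from 75862327 to 75867408. The authors aligned to mm9, and the table itself carries no coordinates.

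The wider pathway was examined in 7 further lists of 64 genes, of which 62 had a row in the table and 50 passed an FPKM of 1 in at least 1 library. At 3-fold, 4 of the 50 were higher and 6 were lower in KO, 20% against 27.3% of all genes compared.

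Of the other sensors, 6 of 10 passed the filter, and 0 of these passed 3-fold in either direction. With a pseudocount of 0.1 in place of 1 this was 1 higher, Mefv (pyrin), named after its values of 0.972 FPKM in WT and 3.63 in KO were seen. Their median difference was 0.17, or 0.06 over the 5 genes at 1 FPKM or more in both libraries. Ifi204, a DNA-binding relative of Aim2, was at 70.9 FPKM in WT compared with 63.0 in KO. Nlrp1a was at 7.60 and 9.44 FPKM. Nlrp10 and Nlrp12 were listed at 0 in both libraries.

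The interleukin-1 list held the cytokines of the family with their receptors and inhibitors. Of 12 genes 10 passed the filter, 3 at higher and 7 at lower values in KO, with 0 higher and 1 lower at 3-fold, 1 higher and 4 lower at 2-fold and a median difference of -0.23. That median was -0.02 over the 8 genes at 1 FPKM or more in both libraries. Il1b was at 173 FPKM in both libraries, with a difference of -0.00. Il18, the other caspase-1 substrate, was at 26.4 FPKM in WT compared with 42.9 in KO, a difference of 0.68. Il1rn, the receptor antagonist, was at 68.4 and 50.4 FPKM. Il33, an alarmin of stromal cells, was at 7.50 FPKM in WT and listed at 0 in KO, the 1 lower gene.

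Among 14 activation cues and regulators, 12 passed the filter, 2 were higher and 2 were lower at 3-fold, and the median difference was 0.09. Panx1, a channel that releases ATP, was at 2.09 FPKM in WT compared with 9.81 in KO. Nlrx1, named after its value was seen, was listed at 0 in WT but reached 3.40 FPKM in KO. Brcc3, a deubiquitinase of NLRP3, was at 24.0 FPKM in WT compared with 2.25 in KO, a difference of -2.94 and of the size found for Pycard. Pstpip1, a partner of pyrin, was at 17.2 and 4.93 FPKM, a difference of -1.62. P2rx7, the ATP-gated channel upstream of NLRP3, was at 62.1 FPKM in both. Txnip was at 185 FPKM in WT compared with 161 in KO.

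Guanylate-binding proteins expose bacterial lipopolysaccharide to caspase-11 and bacterial DNA to AIM2. Of 7 genes in this list 6 passed the filter, with 0 higher and 1 lower at 3-fold and a median difference of -1.04. That median was -0.44 over the 4 genes at 1 FPKM or more in both libraries. Gbp5 was at 12.0 FPKM in WT compared with 0.222 in KO, a difference of -3.41. Gbp2 was at 27.1 and 8.49 FPKM, a 3.19-fold lower FPKM in KO. With the pseudocount of 1 its difference was -1.57, just short of 3-fold. Irgm1 was at 10.7 FPKM in WT compared with 24.3 in KO, a difference of 1.11. Irf1, a transcription factor that induces several of these genes, was at 114 and 92.2 FPKM.

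Of the genes of apoptosis and necroptosis a few are described, with no count for their list. Casp8, the initiator of death-receptor apoptosis, was at 17.9 FPKM in WT compared with 35.8 in KO, a difference of 0.96. Ripk3, the necroptosis kinase, was at 29.0 and 47.9 FPKM, whereas its substrate Mlkl was listed at 0 in both libraries. Ripk1 was at 32.9 FPKM in both.

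Gsdmd was the only gasdermin of those listed that was above 0, since Gsdme, Gsdma, Gsdmc and Gsdmc2 were listed at 0 in both libraries. Ninj1, which ruptures the plasma membrane after pore formation, was at 525 FPKM in WT compared with 468 in KO, a difference of -0.17. All 7 genes of ESCRT-III membrane repair passed the filter, with 0 higher and 2 lower at 3-fold and a median difference of -0.39. Vps4b, an ATPase that recycles ESCRT-III, was at 15.6 FPKM in WT compared with 2.40 in KO, and Chmp3 was at 24.5 and 7.16 FPKM. Chmp4b, the main filament subunit, was at 60.8 and 46.6 FPKM, Chmp2a was at 51.9 and 53.8 FPKM, and Pdcd6ip (ALIX) was at 44.5 and 33.7 FPKM.

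**Figure D3:**
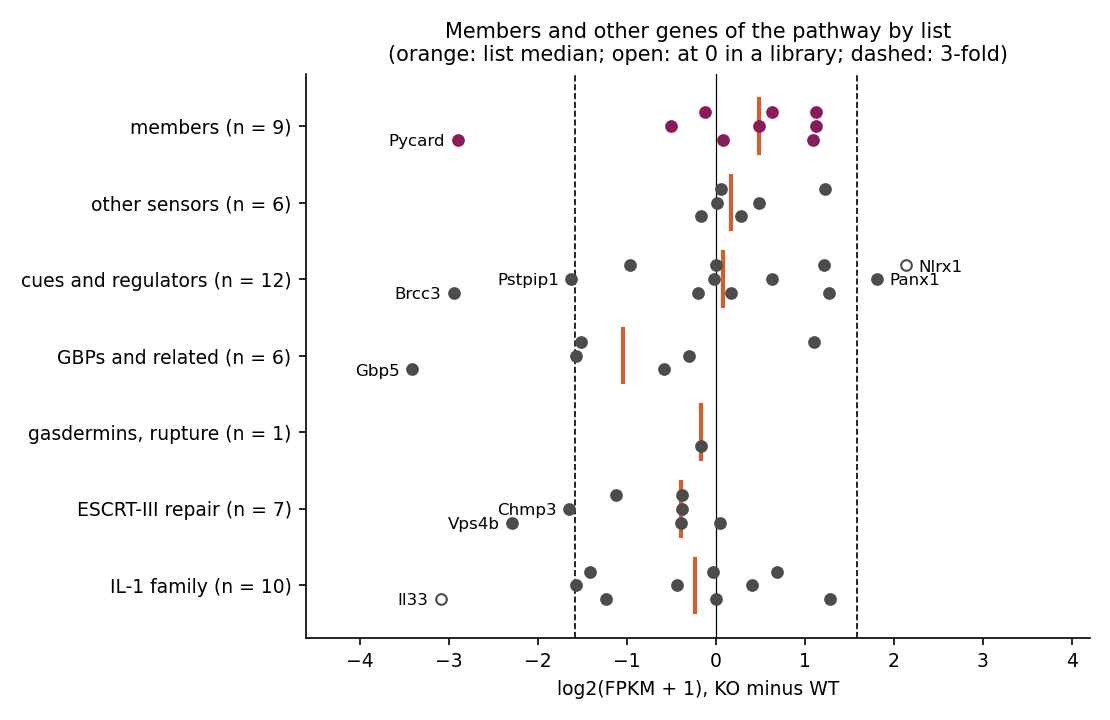
Differences, log2(FPKM + 1), KO minus WT, of the genes past the filter, by list, with 1 point per gene, offset vertically only to separate points. The apoptosis and necroptosis genes are not drawn. Orange bars mark list medians, open points are genes listed at 0 in a library and dashed lines mark 3-fold. Pycard at -2.90 is the one member past them.

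Markers of other cells of fat tissue were compared beside these results. In RNA from sorted cells, fewer cells of a type and less RNA per cell cannot be told apart. Of 12 macrophage markers in the table, 0 passed 3-fold in either direction, and their summed level was 16656 FPKM in WT and 16114 FPKM in KO. Neutrophils also express much of the inflammasome machinery. They carry CD11b but generally lack the Adgre1 product. The purity of the sorted cells is not given in the sources used here. All 8 neutrophil markers past the filter were at higher values in KO, 3 of them by at least 3-fold, with a summed level of 197 FPKM in WT and 572 FPKM in KO over the 12 in the table. S100a8 was at 73.3 and 182 FPKM and S100a9 at 63.4 and 301 FPKM, and without this pair the sums were 60.03 and 88.3 FPKM. Mmp9 was at 38.3 FPKM in WT compared with 48.9 in KO. Csf3r and Cxcr2, named after their values were seen, were at 15.5 and 24.1 FPKM and at 5.83 and 7.96 FPKM. The granule genes Camp, Ltf, Elane and Mmp8 were listed at 0 in both libraries. Ngp and Mpo were listed at 0 in WT and at 2.61 and 2.29 FPKM in KO. Of 5 monocyte markers 1 was higher and 2 were lower at 3-fold, with sums of 42.5 FPKM in WT and 27.9 FPKM in KO. Ly6c2 was at 9.39 FPKM in WT and listed at 0 in KO, Ccr2 was at 29.4 and 9.78 FPKM, and Plac8 was at 1.58 and 16.96 FPKM. The part of neutrophil or monocyte RNA in the differences of Aim2, Nek7, Gsdmd and Pycard was not tested.

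**Figure D4:**
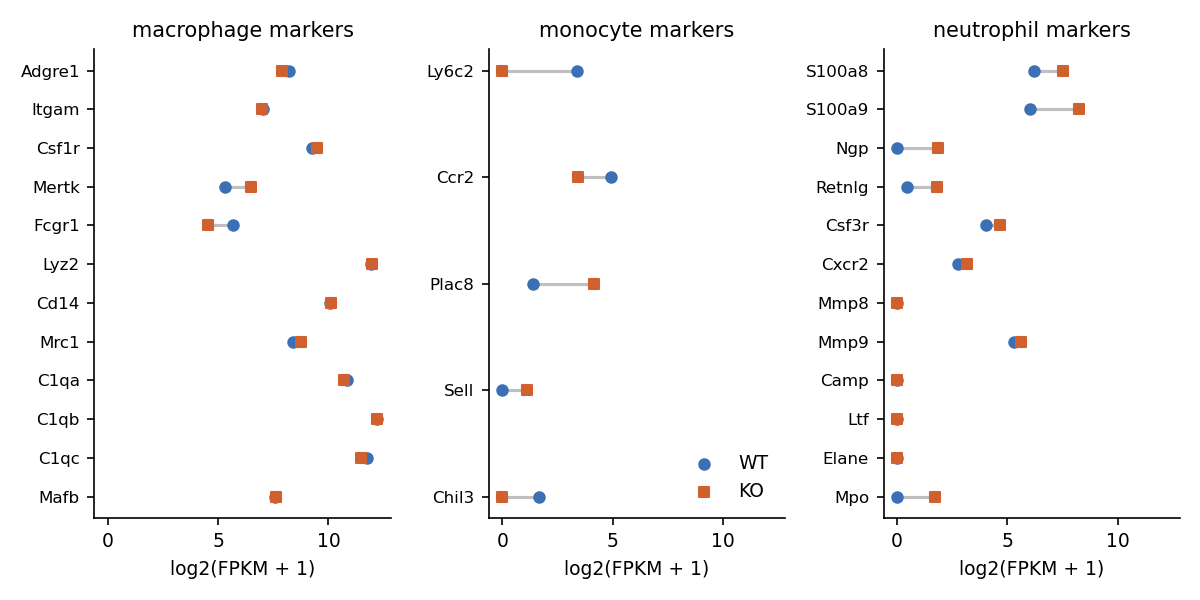
Levels, log2(FPKM + 1), of macrophage, monocyte and neutrophil markers in the WT library (circles) and the KO library (squares), 1 library each. The 12 macrophage markers lie within 3-fold, and all 8 neutrophil markers past the filter, S100a9 at 63.4 and 301 FPKM among them, lie higher in KO.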

How the data were processed

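RNA of sorted ATM was sequenced from poly(A) RNA copied with random primers, with 1 library per genotype. The authors deposited 1 table of FPKM values per gene. CASAVA 1.8.2, TopHat2 2.0.9 and Cufflinks 2.2.1 on build mm9 are named in the submitters' processing notes, while the annotation and any filter are not given in the sources used here. KO values were read from the column headed as mutant, the only one not headed WT. Of 20749 rows, 401 full repeats were dropped and 18 further rows of repeated identifiers were summed. This left 20330 genes, and GENCODE M21 gave symbols for 20035. A count test was not run, as the values are normalized.

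Genes that reached 1 FPKM in either library were compared as log2(FPKM + 1), with Python 3.11.15 and pandas 2.3.3. The calculation was checked on simulated data with known changes in well-expressed genes and no spread between libraries. That check says nothing about the reliability of the differences reported. The size of 3-fold is the one the study states for its gene lists, without naming a pseudocount. Here it was applied to log2(FPKM + 1), where a gene at low values needs a larger FPKM ratio to pass. The members, the other lists and the alternatives were chosen with earlier results of these data known. All members were named. Other listed genes were eligible when past 3-fold with at least 5 FPKM in a library or among the 3 highest of their list. Not all eligible genes are named. Genes listed at 0 and other genes behind small counts were named after their values were seen. Estimated depth was 5950000 fragments for WT and 7470000 for KO. Alternatives were other pseudocounts, filters, scalings, treatment of repeats and a 2-fold threshold. Some genes of apoptosis and necroptosis are not reported here, so no count or median of that list is given, although the totals over all lists include it.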

Additional observations from a re-analysis of the deposited data

How the results depend on the processing

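No paired analysis was possible because there was 1 library per genotype, and no library could be left out. Over the settings tried, the difference of each of the 9 members kept its direction and moved by less than 1.5-fold, in 71 of 71 recomputed values. Naip5 gave no value when only genes averaging 5 FPKM or more were compared. Pycard lay between -3.47 and -2.86 and stayed the only member past 3-fold, and the median of the members lay between 0.49 and 0.56. With a 2-fold threshold 3 members were higher, and 2380 and 2314 of all genes were higher and lower. The counts over all genes fell to 429 higher and 447 lower, of 7586 genes, when both libraries had to reach 1 FPKM. They fell to 598 and 646 for genes averaging 5 FPKM or more. Both settings compare fewer genes. Scaling to the same sum or the same upper quartile moved the median difference of all genes by 0.04 and 0.01. Of 182 recomputed values for the other lists, 157 were within 1.5-fold and 25 moved by more. The median of the interleukin-1 family was 0.41 among genes averaging 5 FPKM or more, and that of the activation cues and regulators was -0.00 with either stricter filter, in each case over fewer genes. The lower count among guanylate-binding genes was 3 with a pseudocount of 0.1 and 0 when both libraries had to reach 1 FPKM, where Gbp5 was left out. That among the interleukin-1 family was 3 with a pseudocount of 0.1 or 0.01 and 0 with either stricter filter. Of the other sensors, 1 was higher with either smaller pseudocount. Among the activation cues and regulators, the lower count was 1 with scaling to the same sum. Their higher count was 1 with either stricter filter. With the shortest coding transcript, Pycard in KO would rest on 6.42 fragments and Aim2 in WT on 9.60.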

Other observations

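Markers of further cell types were given no comparison with the members. Dendritic cell markers summed to 126 FPKM in WT and 140 FPKM in KO, nearly all of it Cd209a at 122 and 131 FPKM, and Zbtb46 was listed at 0 in WT but reached 9.45 FPKM in KO. T and NK cell markers summed to 5.35 and 2.07 FPKM, all from Cd4, and Cd3d, Cd3e and Cd3g were listed at 0 in both libraries. B cell markers summed to 2.75 and 6.46 FPKM, and eosinophil and mast cell markers to 0 and 8.48 FPKM. Fibroblast and mesothelial markers summed to 43.2 FPKM in WT and 91.8 FPKM in KO, with Dcn at 35.03 and 62.3 FPKM. Adipocyte markers summed to 113 FPKM in both, mostly Fabp4 at 90.1 and 91.4 FPKM. Cidec, the 1 adipocyte marker lower at 3-fold, was at 5.83 FPKM in WT and listed at 0 in KO. Endothelial markers summed to 13.2 and 16.03 FPKM.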
